A study of Homo sapiens with 10 samples.

Results

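The luminal transcription factors GATA3, FOXA1, XBP1, SPDEF and ESR1, the secreted or secretory-pathway proteins TFF1, TFF3 and AGR2, and the chromatin protein TOX3 were followed in SKBR3, a breast carcinoma cell line with amplified HER2 that the labels describe as carrying mutant p53. These 9 genes were a fixed list, chosen with earlier results of these data known. They are among 19775 genes named by a probe set with a single gene symbol. All 29 of their single-symbol probe sets were taken. The siRNA was specific for p53 (p53i) or, as negative control, for LacZ, a bacterial gene (LacZi), and RNA was hybridised to 10 Affymetrix arrays. In p53i cells, 2 arrays were untreated and 1 each came from 8, 20 and 50 h with calcitriol at 100 nM, which is active vitamin D3 (written D3). LacZi cells had the same 5 arrays. All groups share the single cell line, its p53 mutation, charcoal-stripped serum and a transfection, and the series and sample texts put D3 at 48 h and at 24 h after transfection. The siRNA's target transcript was not analysed here, so the groups are those of the labels. Untreated arrays have no harvest time in the labels, and an effect of D3 cannot be told apart from one of time in culture.

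GATA3 and FOXA1 are the core regulators of the luminal breast programme: FOXA1 opens chromatin as a pioneer factor, and both assist the oestrogen receptor ESR1 at its enhancers. XBP1 drives the secretory and unfolded protein response, and SPDEF is an ETS factor of secretory epithelium, where the disulfide isomerase AGR2 and the trefoil peptides TFF1 and TFF3 are made. TOX3 is an HMG-box protein whose locus is associated with breast cancer susceptibility.

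Promoters are shown for 2 factors with a probe set called higher in p53i cells, XBP1 and SPDEF, and for the secretory gene AGR2, which had no call. Each is the 250 bases before the gene start on the minus strand, from RefSeq on GRCh38.p14. Capitals mark a match to 1 of 5 motifs searched on both strands: the forkhead core GTAAACA, the core AGATAA bound by the GATA family, the nuclear receptor half-site AGGTCA, the box CCAAT, and CCACGT, the core bound by XBP1. No matches overlap in the sequences shown.
XBP1, chr22:28800570-28800819: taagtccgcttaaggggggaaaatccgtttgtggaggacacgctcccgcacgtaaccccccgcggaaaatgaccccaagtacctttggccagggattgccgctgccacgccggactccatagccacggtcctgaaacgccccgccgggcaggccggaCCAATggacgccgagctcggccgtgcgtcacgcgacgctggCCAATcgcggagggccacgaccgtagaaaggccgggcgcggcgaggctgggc
SPDEF, chr6:34556330-34556579: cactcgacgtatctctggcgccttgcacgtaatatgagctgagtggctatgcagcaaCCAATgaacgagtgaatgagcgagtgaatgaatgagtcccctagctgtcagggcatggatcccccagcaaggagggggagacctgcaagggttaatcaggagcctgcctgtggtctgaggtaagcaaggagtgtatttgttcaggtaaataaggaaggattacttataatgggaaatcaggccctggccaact
AGR2, chr7:16805000-16805249: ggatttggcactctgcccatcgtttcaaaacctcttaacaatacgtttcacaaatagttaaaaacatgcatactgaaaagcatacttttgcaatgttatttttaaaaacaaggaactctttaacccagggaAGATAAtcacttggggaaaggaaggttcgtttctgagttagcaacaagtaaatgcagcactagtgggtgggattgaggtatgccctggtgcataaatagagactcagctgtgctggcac
XBP1 had CCAAT at 93 and 52 bases before its start, SPDEF had it at 193 bases, and AGR2 had AGATAA at 119 bases. Among 35116 RefSeq promoters of this length, 32.0% held CCAAT, 9.17% AGATAA, 12.1% AGGTCA, 8.37% CCACGT and 2.98% GTAAACA. A match of these letters is a description of the window only. The promoter at the gene start of FOXA1 (chr14:37595250-37595499) and that of GATA3 (chr10:8045083-8045332) held none of the 5 motifs.

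The deposited values are MAS5 signals, a linear intensity for each probe set, with a trimmed mean of 200 on every array, and array medians lay between 35.7 and 44.3. Luminal epithelial markers were bright, with 11 of 12 above the filter, EPCAM among them at 4499 to 6280 in p53i cells and 5075 to 6554 in LacZi cells. CDH1 was the 1 below it, at 2.80 to 23.9 on the 10 arrays. Of the other cells' markers, 4 of 8 measured basal, 2 of 12 fibroblast and 1 of 6 leukocyte genes were above it, and PTPRC stayed at 0.571 to 20.9 on the 10 arrays. The arrays carry ACTB control probe sets at both ends of the transcript, and their 3'/5' ratio, which climbs as RNA degrades or labelling falls short, was 6.22 ± 1.77 on p53i arrays and 4.46 ± 0.523 on LacZi arrays (SD, n = 5 each). It was highest on p53i untreated replicate 2 (8.72) and p53i 20 h (7.11). Its correlation with the signals is given beside the probe sets that were called or near the threshold for siRNA.

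Of the 29 probe sets, 20 lay above the filter (a mean signal over 35.4) and were tested, with at least 1 for each of the 9 genes, and 9 lay below it, of which 7 belonged to ESR1, 1 to XBP1 and 1 to TOX3. Differences are on log2(signal + 16) with standard errors (SE), tested with limma over 27337 probe sets with Benjamini-Hochberg adjustment, and a probe set is called at an adjusted p under 0.05. Since bulk RNA was measured, fewer cells with a transcript and less of it per cell cannot be told apart. Each D3 time has a single array per siRNA, so the p-values reflect no more than the spread among these 10 arrays, which may be technical.

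With siRNA against p53, XBP1, SPDEF and TFF3 were each called higher at 1 probe set over all conditions, by 0.34 to 0.68 on the log2 scale. GATA3, FOXA1, ESR1, TFF1, AGR2 and TOX3 had no called probe set. The question was which luminal genes differ when mutant p53 is targeted. Of the 20 probe sets, 3 were called, all higher in p53i cells, where 3.54% of all probe sets were called (1.91% higher and 1.63% lower). The median difference was 0.22 over the 20 probe sets and -0.016 over all probe sets. In the 4 matched comparisons (untreated, 8, 20 and 50 h), 6 of the 20 were higher in p53i in all 4, against 14.2% of all probe sets, and 0 were lower in all 4, against 15% of all. The 6 were XBP1 200670_at, TFF3 204623_at, GATA3 209604_s_at and SPDEF 220192_x_at, 213441_x_at and 214404_x_at. The SPDEF probe sets share a transcript and are not independent. For 0 of the 20 did all 5 p53i arrays lie above or below all 5 LacZi arrays, as they did for 5.27% of all.

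XBP1, the factor of the secretory and unfolded protein response, had signals of 5225 and 4575 in untreated p53i cells and 4108, 3969 and 3883 at 8, 20 and 50 h, against 4056 and 3534 in untreated LacZi cells and 3288, 3137 and 3136 at the D3 times (probe set 200670_at). Every p53i array was above the LacZi array or arrays of its own condition, although the groups overlapped across conditions. The mean was 4352 ± 556 in p53i cells and 3430 ± 386 in LacZi cells (SD, n = 5 each), and the difference was 0.34 ± 0.07 (SE; limma, adjusted p = 0.0241). The matched differences had a narrow range: 0.37 untreated, 0.32 at 8 h, 0.34 at 20 h and 0.31 at 50 h. With the ACTB ratio in the model the difference was 0.39, as large as without it, and the adjusted p was 0.0905 (0.00705 to 0.931 over all settings). Averaged with its dim second probe set, XBP1 differed by -0.025, the 1 setting in which the direction turned. The dim probe set 242021_at lay at 4.22 to 39.8 in p53i cells and 4.22 to 44.3 in LacZi cells, below the filter. Fitted in limma without the filter, it differed by -0.39 ± 0.28 for siRNA (SE, adjusted p = 0.620), opposite in sign to 200670_at. For the D3 mean it differed by -0.93 ± 0.29 (SE, adjusted p = 0.204).

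SPDEF, which has 5 probe sets, was called at 1 of them. At 214404_x_at the signals were 1971 and 3682 in untreated p53i cells and 2988, 3029 and 2394 at 8, 20 and 50 h, against 1929 and 1736 in untreated LacZi cells and 2308, 1742 and 1652 at the D3 times. The p53i arrays were higher in every condition, with untreated replicate 2 the highest of all. The mean was 2813 ± 655 in p53i cells and 1874 ± 263 in LacZi cells (SD, n = 5 each), a difference of 0.56 ± 0.14 (SE; limma, adjusted p = 0.0476). The other bright probe sets moved with it over the 10 arrays (Pearson's r of 0.88 to 0.97 among the 3, as a description of probe sets that share a transcript). They differed by 0.33 ± 0.10 (220192_x_at, adjusted p = 0.0938) and 0.35 ± 0.11 (213441_x_at, adjusted p = 0.103). The ACTB 3'/5' ratio moved with them too, at r of 0.82 to 0.89 on the log2 scale over 10 arrays. With it in the model the difference of 214404_x_at was 0.23 (adjusted p = 0.393, and 0.00576 to 0.393 over all settings), and without the 2 arrays with the highest ratio it was 0.31. The dimmer 214403_x_at and 213442_x_at, between 53.3 and 210.0 on all arrays, differed by 0.14 and -0.34 and were not called.

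GATA3 came near the threshold at its brightest probe set. 209604_s_at had 2567 and 3304 in untreated p53i cells and 2413, 3095 and 3320 at 8, 20 and 50 h, against 2384 and 1955 in untreated LacZi cells and 2215, 2288 and 2628 at the D3 times. It was higher in p53i in 4 of 4 matched comparisons with overlapping groups, and the difference of 0.35 ± 0.09 had an adjusted p of 0.0593. Its r with the log2 ACTB ratio was 0.84 over 10 arrays, and with that ratio in the model the difference was 0.17. The other GATA3 probe sets, at 173 to 457 (209602_s_at) and 164 to 280 (209603_at) on the 10 arrays, differed by 0.26 ± 0.21 and 0.29 ± 0.14 and were not called.

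**Figure D1:**
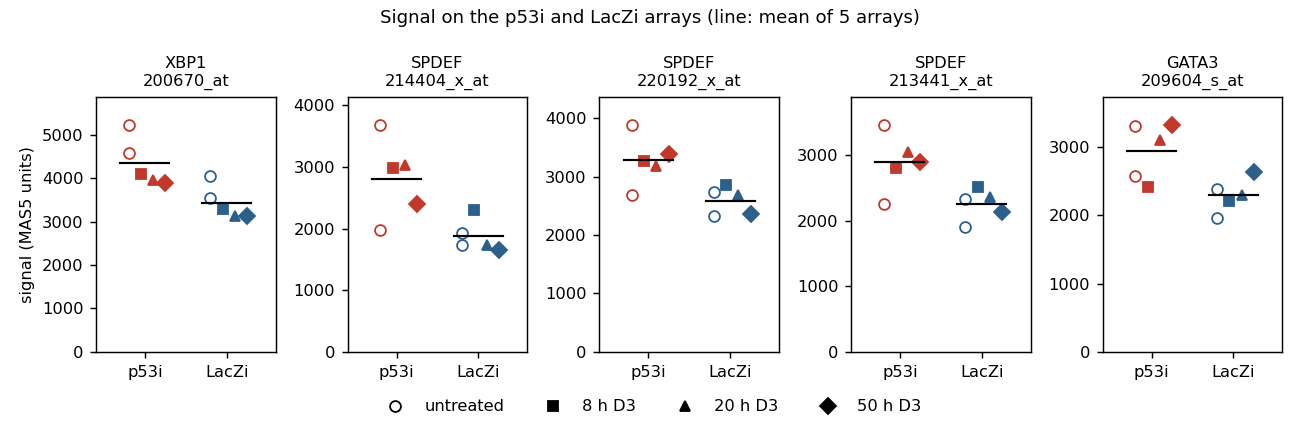
MAS5 signal (linear axis from 0) of XBP1, 3 SPDEF and 1 GATA3 probe sets on the 5 p53i and 5 LacZi arrays. Each point is an array, its shape gives the D3 time, and the line is the mean of 5. XBP1 averaged 4352 in p53i cells and 3430 in LacZi cells, and SPDEF 214404_x_at has its highest point in untreated p53i cells.

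**Figure D2:**
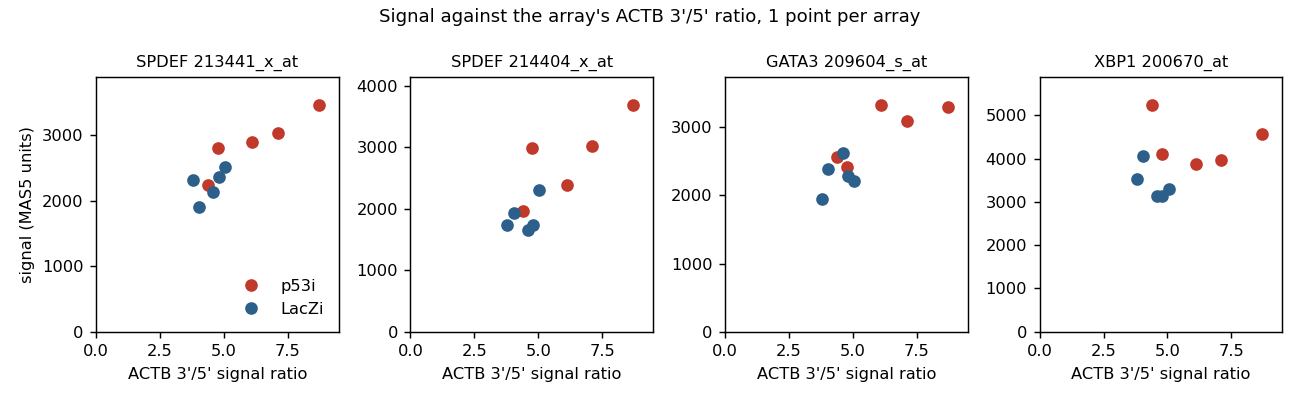
Signal (linear axis from 0) against the ACTB 3'/5' ratio on the 10 arrays for 2 SPDEF, 1 GATA3 and 1 XBP1 probe sets, p53i in red and LacZi in blue. The p53i arrays with ratios of 8.72 and 7.11 lie at the right end of each panel, where the signals of SPDEF and GATA3 are high.

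TFF3, a secreted trefoil peptide, was the only gene of the 9 with calls for both siRNA and D3. Its single probe set 204623_at had 428 and 334 in untreated p53i cells and 445, 183 and 166 at 8, 20 and 50 h, against 359 and 219 in untreated LacZi cells and 180, 117 and 92.4 at the D3 times. The highest signals were p53i at 8 h and p53i untreated replicate 1, and the lowest were LacZi at 20 and 50 h. The p53i mean was 311 ± 132 and the LacZi mean 193 ± 105 (SD, n = 5 each), and the matched difference was 0.68 ± 0.17 (SE; limma, adjusted p = 0.0469), higher in p53i in 4 of 4 comparisons. Its r with the log2 ACTB ratio was -0.020, and with that ratio in the model the difference was 0.90 (adjusted p = 0.0855, and 0.0202 to 0.164 over all settings).

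With D3, TFF3 and TOX3 fell, and the other 7 genes had no called probe set. For the mean of 8, 20 and 50 h against untreated, 2 of the 20 probe sets were called, both lower, where 1.98% of all probe sets were called (1.10% higher and 0.885% lower). The median difference was -0.0075 over the 20 probe sets and 0.020 over all. TFF3 averaged 197 ± 127 with D3 (SD, n = 6) and 335 ± 86.9 untreated (SD, n = 4), and fell by 0.85 ± 0.17 on the log2 scale (SE; limma, adjusted p = 0.0287). By time it differed by -1.07 at 20 h (adjusted p = 0.0954) and -1.29 ± 0.23 at 50 h (adjusted p = 0.0185). Within p53i cells the differences from the untreated mean were 0.23 at 8 h, -0.99 at 20 h and -1.12 at 50 h. Within LacZi cells they were -0.60, -1.16 and -1.45 at the same times. The p53i 8 h array (445) was above every untreated array, and the other 5 D3 arrays were below every one of them.

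TOX3 lay lower on all 6 D3 arrays than on all 4 untreated arrays at each of its 3 tested probe sets. Among all probe sets 3.71% had no overlap between D3 and untreated arrays, 1.75% with D3 lower. The 3 TOX3 probe sets measure the same gene (r of 0.70 to 0.89 over 10 arrays) and are not independent. 216623_x_at had 176 and 84.5 in untreated p53i cells and 84.3, 47.2 and 21.7 at 8, 20 and 50 h. In LacZi cells it had 117 and 105 untreated and 61.0, 50.0 and 29.8 at the D3 times. It was lower at each later time in both siRNAs, and the p53i 8 h array (84.3) lay just under the lowest untreated one (84.5). The mean was 49.0 ± 22.4 with D3 (SD, n = 6) and 121 ± 39.3 untreated (SD, n = 4), and it fell by 1.10 ± 0.21 over the 3 times (SE; limma, adjusted p = 0.0249).

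The remaining tested TOX3 probe sets had similar sizes. 214774_x_at had 209.0 and 99.8 in untreated p53i cells and 54.3, 80.2 and 31.5 at 8, 20 and 50 h, against 97.7 and 90.8 in untreated LacZi cells and 79.2, 57.6 and 32.5 at the D3 times. It differed by -0.95 ± 0.23 over the 3 times (adjusted p = 0.0556). 215108_x_at had 98.8 and 68.7 in untreated p53i cells and 64.8, 29.5 and 41.7 at the D3 times, against 93.5 and 100.1 in untreated LacZi cells and 38.6, 45.3 and 18.7 at the D3 times. It differed by -0.97 ± 0.23 (adjusted p = 0.0523). At 50 h the signals of all 3 (18.7 to 41.7) were below the array medians, 44.0 for p53i and 40.9 for LacZi. Only 215108_x_at in p53i cells (41.7) was over the filter level of 35.4. The sizes therefore depend on the offset: 216623_x_at differed at 50 h by -1.68 ± 0.29 with the offset of 16 (adjusted p = 0.0157), by -2.19 with none and by -1.02 with 64. TOX3 differed little between siRNAs in these fits (0.059 to 0.20, with SEs of 0.21 to 0.23). Its other probe set, 230745_s_at, lay below the filter at 3.42 to 27.8. Fitted without the filter, 230745_s_at differed by -0.037 ± 0.28 for the D3 mean and by 0.12 ± 0.38 at 50 h (SE). The fall is thus not shown at this dim probe set.

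**Figure D3:**
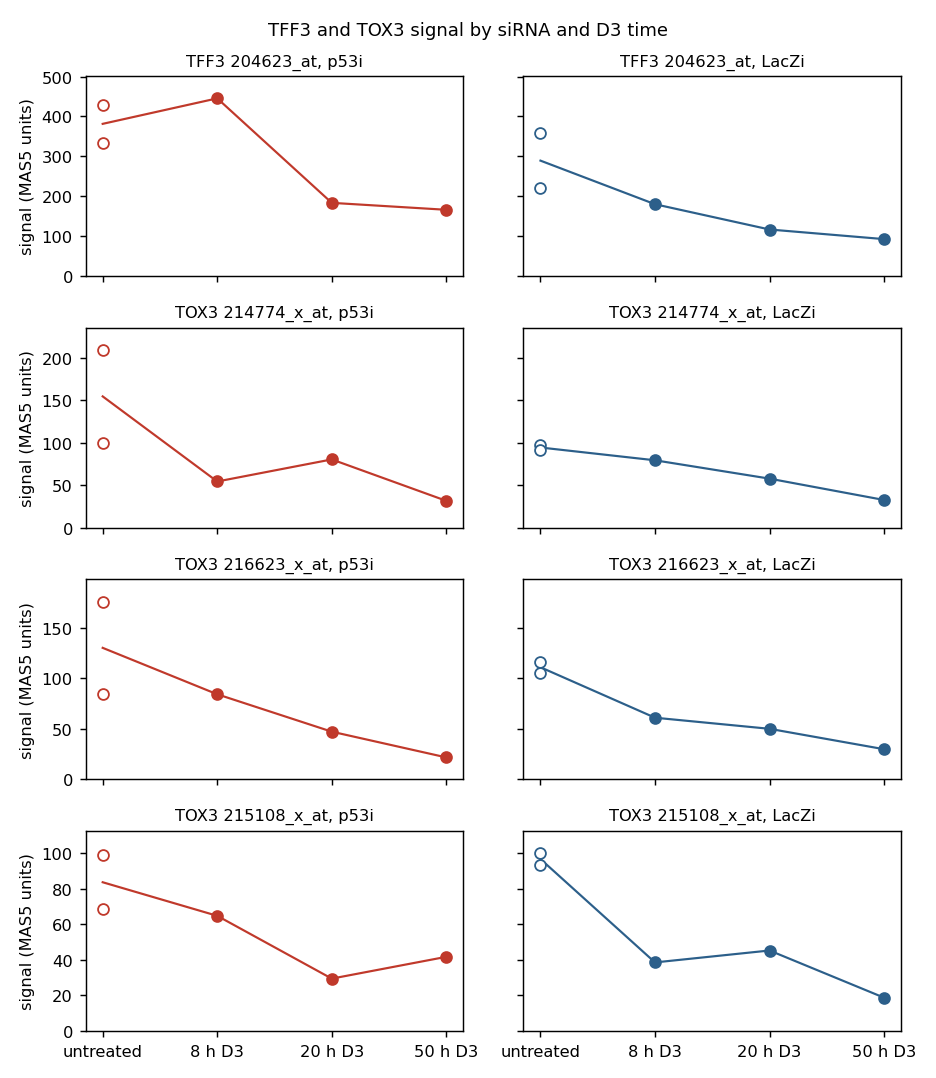
MAS5 signal of TFF3 and the 3 tested TOX3 probe sets by hours with 100 nM D3, p53i in the left panels and LacZi in the right. Points are arrays, 2 untreated and 1 at each time per siRNA, and lines join the untreated mean to the D3 times. TFF3 is at 166 in p53i and 92.4 in LacZi cells at 50 h, and TOX3 216623_x_at at 21.7 in p53i and 29.8 in LacZi cells.

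At single times, 0 of the 20 probe sets were called at 8 h (0.0732% of all) and 0 at 20 h (0.219% of all). An unadjusted p under 0.05 in limma was met by 2 of the 20 at 8 h, against 6.54% of all probe sets. At 20 h it was met by 4 of the 20, against 11.8% of all. At 50 h, 3 were called, all lower: TFF3, TOX3 216623_x_at and TOX3 214774_x_at (-1.47 ± 0.31, adjusted p = 0.0326), where 1.98% of all were called (0.973% lower). The 50 h and 8 h arrays were also compared with each other, where 0 of the 20 were called (0.0256% of all). An unadjusted p under 0.05 in limma was met there by 5 of the 20, against 8.14% of all. TFF3 was lower at 50 h than at 8 h by -1.10 ± 0.26 (adjusted p = 0.300) and TOX3 216623_x_at by -1.08 ± 0.33 (adjusted p = 0.438) in that contrast.

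XBP1 was below the lowest untreated array of its own siRNA on all 6 D3 arrays, at -0.25, -0.30 and -0.33 from the untreated mean in p53i cells and -0.20, -0.27 and -0.27 in LacZi cells at 8, 20 and 50 h. Across the siRNAs its D3 and untreated arrays overlapped, and the share of all probe sets lower in this way within both siRNAs was not counted. Over both siRNAs the XBP1 difference was -0.27 ± 0.07 with an adjusted p of 0.0743, which did not pass. The bright probe sets of SPDEF and GATA3 differed by 0.041 to 0.10 and by 0.068 with D3, with SEs of 0.095 to 0.14. Their dimmer probe sets, also not called, differed more. GATA3 209602_s_at and 209603_at differed by -0.35 ± 0.21 and -0.21 ± 0.14, opposite in sign to the bright one. SPDEF 214403_x_at and 213442_x_at differed by 0.46 ± 0.21 and 0.20 ± 0.19.

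The response to D3 was compared between the siRNAs by an interaction term, the D3 difference in p53i cells minus that in LacZi cells. No probe set of the 27337 was called (0.00%), and 1733 (6.34%) had an unadjusted p under 0.05 in limma, among them FOXA1 237086_at and TFF1 of the 20. FOXA1 237086_at had 1215 and 1050 in untreated p53i cells and 1809, 1779 and 1644 at 8, 20 and 50 h, against 1157 and 1659 in untreated LacZi cells and 1168, 1378 and 952 at the D3 times. All 3 p53i D3 arrays were above both p53i untreated arrays, and the LacZi D3 arrays lay among or below the LacZi untreated ones. The difference between responses was 0.88 ± 0.22, with an unadjusted p of 0.00224 and an adjusted p of 0.636. The second FOXA1 probe set, 204667_at, had 471 and 549 in untreated p53i cells and 590, 467 and 504 at the D3 times, against 550 and 601 in untreated LacZi cells and 668, 533 and 396 at the D3 times. It differed between responses by 0.16 ± 0.22, and the r between the 2 FOXA1 probe sets was 0.25 over 10 arrays.

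TFF1, the trefoil peptide first known as an oestrogen-induced transcript of breast cancer cells, had 641 and 732 in untreated p53i cells and 936, 699 and 988 at 8, 20 and 50 h, against 971 and 653 in untreated LacZi cells and 579, 694 and 486 at the D3 times. The p53i arrays at 8 and 50 h were above both untreated p53i arrays, and the LacZi untreated arrays themselves spanned 653 to 971. The difference between responses was 0.78 ± 0.30 with an unadjusted p of 0.0247 and an adjusted p of 0.762. TFF1 and TFF3 are neighbours on chr21, 46.9 kb apart (TFF3 at 42311667 to 42315409 and TFF1 at 42362282 to 42366535 on GRCh38.p14), with TFF2 between them. TFF1 differed by -0.059 ± 0.18 with D3 over both siRNAs where TFF3 was called lower, and TFF2 lay below the filter at 12.3 to 55.0 in p53i cells and 8.06 to 41.0 in LacZi cells.

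**Figure D4:**
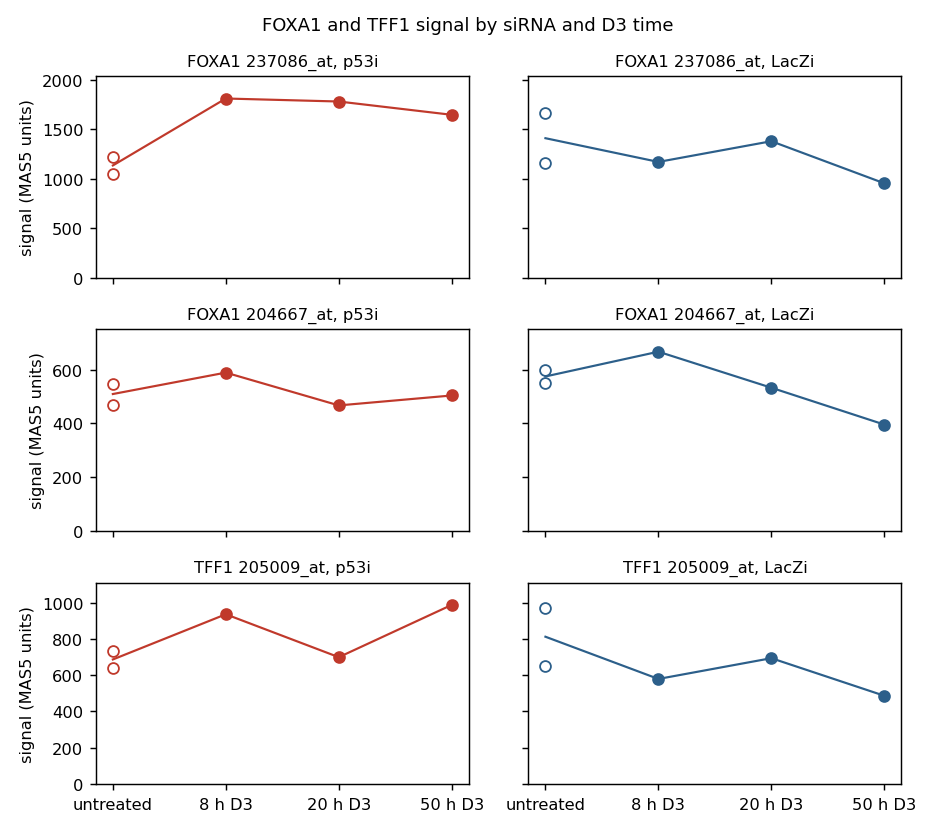
MAS5 signal of FOXA1 and TFF1 by hours with 100 nM D3, p53i in the left panels and LacZi in the right. Points are arrays and lines join the untreated mean to the D3 times. At 50 h FOXA1 237086_at is at 1644 in p53i and 952 in LacZi cells, and TFF1 at 988 in p53i and 486 in LacZi cells.

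ESR1, the oestrogen receptor, was at the edge of measurement in this line, which is classed as receptor-negative. The 2 of its 9 probe sets above the filter were at 20.1 to 60.2 (205225_at) and 17.9 to 53.8 (215551_at) on the 10 arrays, and the other 7 (211233_x_at, 211234_x_at, 211627_x_at, 211235_s_at, 217163_at, 215552_s_at and 217190_x_at) at 1.08 to 56.8. The progesterone receptor PGR, a target of ESR1, lay below the filter at 3.29 to 47.5. 215551_at was lowest on the 50 h arrays of both siRNAs, at 17.9 in p53i and 18.1 in LacZi cells where the other 8 arrays were at 39.1 to 53.8, and differed at 50 h by -0.87 ± 0.27 (adjusted p = 0.118). 205225_at was at 20.1 in p53i and 57.8 in LacZi cells at the same time, and the r between the 2 probe sets was 0.36.

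AGR2, the disulfide isomerase, was bright and had no call in any comparison. 209173_at had 4912 and 6485 in untreated p53i cells and 6265, 6135 and 8506 at 8, 20 and 50 h, against 5364 and 7396 in untreated LacZi cells and 6369, 5942 and 6726 at the D3 times. 228969_at had 306 and 813 in untreated p53i cells and 533, 576 and 804 at the D3 times, against 275 and 698 in untreated LacZi cells and 545, 673 and 743 at the D3 times. In both siRNAs untreated replicate 1 was the lowest array at both probe sets, below replicate 2 by 1.37 in p53i and 1.29 in LacZi cells at 228969_at on the log2 scale. This spread between untreated arrays is larger than the D3 difference of 0.43 ± 0.26 at that probe set.

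**Figure D5:**
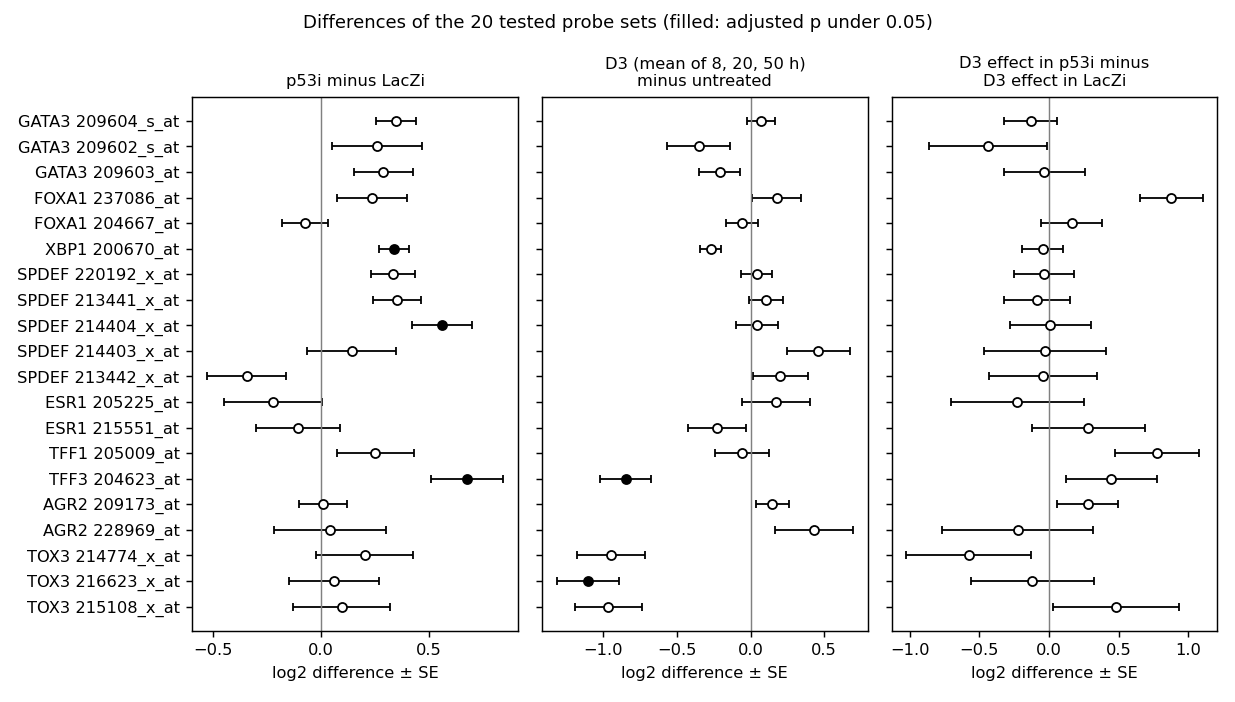
Log2 differences with standard errors for the 20 tested probe sets, for siRNA (p53i minus LacZi), D3 (mean of 3 times minus untreated) and their interaction. XBP1 (0.34), SPDEF 214404_x_at (0.56) and TFF3 (0.68) are called for siRNA, and TFF3 (-0.85) and TOX3 216623_x_at (-1.10) for D3.

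When the 4 untreated arrays were compared on their own, 0 of the 20 probe sets were called (0.00732% of all). An unadjusted p under 0.05 in limma was met by 2 of the 20, GATA3 209604_s_at and XBP1, against 11.0% of all. XBP1 differed there by 0.37 ± 0.14 (adjusted p = 0.417), SPDEF 214404_x_at by 0.55 ± 0.26 (adjusted p = 0.476) and TFF3 by 0.41 ± 0.27 (adjusted p = 0.614).

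Other genes of the same programmes were described from lists at the brightest probe set of each gene, where 4.43% of 12022 genes were called for siRNA (2.44% higher and 2.00% lower) and 2.72% for the D3 mean (1.37% higher and 1.35% lower), as were 2.72% for D3 at 50 h. Of other secreted and mucin genes of luminal epithelium, 3 of 17 were higher in p53i cells and 0 lower: the adhesion glycoprotein CEACAM6 (0.78 ± 0.13, adjusted p = 0.0106) and the secretoglobins SCGB1D2 (0.68 ± 0.14, adjusted p = 0.0228) and SCGB2A2 (0.46 ± 0.11, adjusted p = 0.0489). CEACAM6 was at 2995 to 3754 on p53i arrays and 1129 to 2473 on LacZi arrays, without overlap. Of all probe sets, 5.27% had no overlap between p53i and LacZi arrays. The list's median difference was 0.14, against -0.0049 over all genes. Of secretory and unfolded protein response genes, among which many are XBP1 targets, 2 of 30 were higher, CREB3L1 (0.66 ± 0.14, adjusted p = 0.0273) and the disulfide isomerase P4HB (0.25 ± 0.06, adjusted p = 0.0469), and 0 lower, with a median of -0.028. Of other epithelial transcription factors 0 of 19 were called, and of oestrogen-responsive genes 1 of 15, the adenylate cyclase ADCY9 (0.47 ± 0.12, adjusted p = 0.0474).

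For the D3 mean, 2 of the 19 other epithelial transcription factors were lower and 0 higher, and at 50 h EHF was called lower and GRHL1 higher (0.51). EHF, an ETS factor related to SPDEF, fell by 0.83 ± 0.14 (adjusted p = 0.0151) and OVOL2, a zinc finger repressor of mesenchymal genes, by 0.74 ± 0.17 (adjusted p = 0.0449). EHF had 1740 and 1078 in untreated p53i cells and 882, 636 and 646 at 8, 20 and 50 h. In LacZi cells it had 1356 and 980 untreated and 855, 697 and 537 at the D3 times. All 6 D3 arrays were below the 4 untreated ones, as they were for 1.75% of all probe sets. Of oestrogen-responsive genes 1 of 15 was higher, the cyclin CCND1 (0.44 ± 0.08, adjusted p = 0.0232), of secretory genes 1 of 30, the chaperone HYOU1 (0.30 ± 0.07, adjusted p = 0.0451), and of other secreted genes 0 of 17 were called for the D3 mean. At 50 h 1 of those 17 was called, the zinc-binding glycoprotein AZGP1 (-0.86, adjusted p = 0.0261), which was lower. GRHL1, GATA6, AZGP1, KRT5 and GRB7 are named because their counts are small, after their values were seen. Of 10 tested paralogs of the listed genes (19 measured), EHF alone was called for the D3 mean, EHF and GATA6 (-0.97, adjusted p = 0.0202) were called lower at 50 h, and 0 were called for siRNA. Of luminal epithelial markers, 4 of 11 were higher in p53i cells, KRT8 (0.42), CLDN3 (0.39), KRT7 (0.32) and GRB7 (0.38), and 0 of 11 were called for the D3 mean or at 50 h. Of the 4 tested basal markers, the keratin KRT5 was higher with D3 (1.59 ± 0.28, adjusted p = 0.0173), the other 3 were not called, and the list's median was 0.34. KRT5 had 2.87 and 2.40 in untreated p53i cells and 28.6, 37.3 and 92.0 at 8, 20 and 50 h, against 49.6 and 9.18 in untreated LacZi cells and 43.2, 88.2 and 192 at the D3 times. Its untreated signals other than the 49.6 were under the filter level of 35.4. KRT5 passed the filter on its mean only through its D3 arrays, so the call is not independent of that selection. The summed signal of the basal list was 1148 to 1518 on D3 arrays and 985 to 2012 on untreated arrays. Most of this sum was EGFR, at 715 to 1779 on the 10 arrays. The basal list's part in the D3 differences of TFF3 and TOX3 was not tested. The summed signal of the luminal marker list ran from 97185 to 124022 on p53i arrays and from 84735 to 93873 on LacZi arrays. Most of it came from KRT8, KRT18, KRT19, KRT7 and ERBB2, each between 9728 and 29750 on the 10 arrays. The part of that sum, and that of the ACTB ratio in the siRNA calls of these lists, was not tested.

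Patterns most like that of each called gene's brightest probe set were ranked by Pearson's r of log2 values over the 10 arrays, as a description. For SPDEF (220192_x_at) and TOX3 (214774_x_at) the brightest probe set is not the one called for siRNA or for the D3 mean. XBP1 was followed most closely by CDC42BPA (0.986) and EPHX1 (0.973), with 75 probe sets above 0.9. SPDEF was nearest to SPOP (0.965) and CEP131 (0.959), TFF3 to TGFBR1 (0.960) and GPR137B (0.950), and TOX3 to TRPS1 (0.965) and GART (0.955).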

How the data were processed

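Per the submitters' processing notes the deposited intensity values are MAS5 signals. For its version, nothing was given in the sources used here. Per the labels' protocols, 6 ug of Trizol-extracted total RNA were labelled. The mean of each array without the lowest and highest 2% was 200, so no further normalization was applied. Each of 54675 probe sets had 1 value on each array. Through the platform annotation 41097 carried a single symbol, 1801 several and 11777 none, and several-symbol probe sets were left unnamed. Signals were converted to log2(signal + 16), which understates changes of dim probe sets. The upper 50% by mean (27337) went into limma 3.58.1 under R 4.3.3 (two-sided; lmFit, then eBayes with trend). The model was siRNA plus D3 time (5 residual degrees of freedom), with another model adding the interaction (4) and another of 8 group means (2) for untreated cells. The p53i 8 h title spells the siRNA differently, and its group came from its other labels. The members and lists were chosen with earlier results of these data known. Every member probe set is named, up to 3 called genes per list with the smallest adjusted p, and the 2 nearest patterns. The untreated arrays are labelled biological replicates, and nothing states separate cultures for the D3 arrays. The number of arrays limits the precision. On simulated data over 27337 probe sets, log2 changes of 1 were recovered in 90.5% of 200 probe sets for siRNA, 92% for D3, 30% for the interaction and 38.5% for untreated cells. Alternatives were quantile normalization, median centring, other offsets and filters, probe-set means, no trend, group means, a replicate block, the ACTB ratio, and each array left out.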

Additional observations from a re-analysis of the deposited data

Results flagged for a closer look

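Among 80 groups examined (20 tested probe sets, each over its p53i, LacZi, D3 and untreated arrays), 6 arrays stood apart from the rest of their group by Dixon's criterion, which chance meets in about 1 group in 20. SPDEF 214404_x_at was highest among the 4 untreated arrays on p53i replicate 2, at 3682 against 1736 to 1971 on the others, the array whose ACTB 3'/5' ratio was 8.72. TOX3 214774_x_at was highest among the untreated arrays on p53i replicate 1, at 209.0 against 90.8 to 99.8. GATA3 209602_s_at was lowest among the untreated arrays on LacZi replicate 2, at 173 against 396 to 457. AGR2 209173_at was highest among the 6 D3 arrays at 50 h in p53i cells, at 8506 against 5942 to 6726. ESR1 205225_at was lowest among the D3 arrays at 50 h in p53i cells, at 20.1 against 44.2 to 60.2. ESR1 215551_at was lowest among the LacZi arrays at 50 h, at 18.1 against 49.7 to 53.8.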

How the results depend on the processing

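The called genes depend on the settings, and in all of them 10 arrays limit what can be called. For siRNA over all conditions (3 listed genes, 968 probe sets in all) the count was 1 with no offset (XBP1) or with probe-set means (TFF3), and 0 with no filter, no trend, group means, the ACTB ratio as a covariate or without the 2 arrays of highest ratio. With each array left out in turn it ranged from 0 to 3 (130 to 1349 in all). It was 3 without p53i untreated replicate 1 or replicate 2, 2 without LacZi untreated replicate 1, and 0 without any other array. For the D3 mean (2 listed genes, 542 in all) the count was 0 with no filter, no trend or group means, and 0 to 3 with an array left out (115 to 1238 in all). It stayed at 1 or more without LacZi untreated replicate 2, LacZi 50 h, p53i untreated replicate 2 or p53i 8 h. At 50 h (2 listed genes) it was 1 with the upper 25% of probe sets, 0 with no trend or group means, and 0 to 2 with an array left out, being 0 without either 50 h array. At 20 h it was 0 to 1 with an array left out (TFF3 without p53i untreated replicate 2), and in untreated cells 0 to 1 (SPDEF without p53i untreated replicate 1, with 845 in all). It stayed at 0 for 8 h, 50 h minus 8 h and the interaction under every setting, the last with 0 to 327 in all. With the replicate number as a block it was 4 for the D3 mean and at 50 h (AGR2, TFF3, TOX3 and XBP1, with 1129 and 1097 in all), 1 at 20 h (TFF3), and 4 for siRNA (GATA3, SPDEF, TFF3 and XBP1, with 1678 in all). Over the 13 settings other than leaving out an array, all called probe sets numbered 45 to 1678 for siRNA, 65 to 1129 for the D3 mean and 46 to 1097 at 50 h. The untreated arrays share only a number: with 2 pairs, replicate 1 minus 2 correlated at 0.129 between siRNAs.

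With an array left out, the adjusted p was 0.0190 to 0.107 for XBP1 for siRNA, 0.00576 to 0.179 for SPDEF 214404_x_at, 0.0270 to 0.140 for TFF3, and for D3 0.0124 to 0.0996 for TFF3 and 0.0100 to 0.0940 for TOX3 216623_x_at, with the sign kept. The sign turned for 1 called difference: for siRNA, XBP1 gave -0.025 with probe-set means, where its dim probe set enters. The other turned signs were of differences that were not called. For siRNA, AGR2 209173_at gave -0.019 with quantile normalization, -0.085 with the ACTB ratio, -0.049 without the 2 arrays of highest ratio and -0.073 to 0.11 with an array left out. For the D3 mean, GATA3 209604_s_at gave -0.023 with median centring, -0.16 with probe-set means and -0.0019 to 0.15 with an array left out. SPDEF 220192_x_at gave -0.050 with median centring, -0.0077 with the ACTB ratio and -0.058 to 0.15 with an array left out, and TFF1 gave -0.21 to 0.14. For the interaction, GATA3 gave 0.013 and SPDEF 220192_x_at 0.13 with the ACTB ratio, and SPDEF 0.27 without the 2 arrays of highest ratio. With an array left out, the interaction gave -0.31 to 0.049 for GATA3, -0.30 to 0.23 for SPDEF 220192_x_at, -0.15 to 0.053 for XBP1 and -0.48 to 0.13 for ESR1 205225_at. The causes were not tested.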
